A study of Schizosaccharomyces pombe with 4 samples.

Results

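The outer 100 kb at each end of chromosome 3 of fission yeast (Schizosaccharomyces pombe), where the chromosome runs into its ribosomal DNA, were examined for BrdU incorporation. The members were the tiling-array probes named for chromosome 3 at positions 1 to 100000 of the array design (left end) or 2353701 to 2453701 (right end). They came to 304 probes on the left and 306 on the right, 610 of the array's 41551 probes in all. Cells labelled cdc25-22 fft3Δ were compared with cells labelled cdc25-22 (wild type), on 2 arrays each, from series 1 and series 2. Both groups carried the temperature-sensitive cdc25-22 allele, a thymidine kinase driven by the nmt1 promoter (Pnmt1-TK) and a nucleoside transporter driven by the adh1 promoter (Padh1-hENT), which let yeast take up BrdU, an analogue of thymidine. Both were arrested at 37 °C and released at 26 °C into 10 mM hydroxyurea and 200 µM BrdU, and were collected at 120 min. Immunoprecipitated DNA was labelled with Cy5 and whole-cell DNA, the input, with Cy3, always in that orientation. Nothing in the labels tells if series 1 and 2 came from different cultures. Every spread and p-value below therefore measures the spread between these 4 arrays, which may be technical.

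Ribosomal DNA encodes the 18S, 5.8S and 28S RNAs of the ribosome in long tandem arrays, which in this organism occupy both tips of chromosome 3. The spacer between neighbouring transcription units of fission yeast holds a replication origin and barriers that stall replication forks. Hydroxyurea limits the supply of deoxynucleotides, so BrdU taken up in its presence lies mostly near origins that fire early. Fft3 is an SNF2-family chromatin remodeller that the series title links to heterochromatin inheritance and to replication of the genome.

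In the reference assembly of chromosome 3 (ASM294v3, from RefSeq, 2452883 bases), 7 annotated rRNA genes lie within the first 23130 bases and 4 lie beyond base 2440994. Bases 1 to 13708 recur 10870 bases further in, at 99.985% identity, which makes 10870 bases the length of the repeat unit. The tandem repeat ends at base 24578 on the left, and its inverted counterpart begins at base 2439547 on the right. The sequence inside that junction is also shared between the ends. Bases 11260 to 33054 of the left end match the right end in inverted orientation over an alignment of 21847 bases at 98.819% identity, and bases 33009 to 36088 match at 92.67%. The junctions are printed because they show that the unique-looking DNA beside the repeats is itself present at both ends. Each line gives 60 bases read 5′ to 3′ towards the inside of the chromosome, with capitals for the last 30 bases of the repeat where they match the left junction and lower case for all other bases.
Left junction, chr3:24549-24608, plus strand: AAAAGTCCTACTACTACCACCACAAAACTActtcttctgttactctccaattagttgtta
Left end, 1 repeat unit further out, chr3:13679-13738, plus strand: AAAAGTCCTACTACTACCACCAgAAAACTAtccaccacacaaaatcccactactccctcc
Right junction, chr3:2439517-2439576, minus strand: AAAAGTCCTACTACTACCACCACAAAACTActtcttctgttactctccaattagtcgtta
The right junction matched the left at 30 of the 30 repeat bases and 29 of the 30 flanking bases. The copy inside the repeat matched at 29 of 30 repeat bases and, past the junction, at 6 of 30. The array's build is not named and its last probe lies past the end of this reference, so array positions were not converted to it and no probe was assigned to a gene.

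Across the 4 arrays the median input signal was 17.3 to 217 times the local background, and each of the 610 probes was well above background on all of them. Wild-type array 2 stood apart, with 617 non-uniform spots against 4 to 7 on the others (6 of its left-end and 8 of its right-end probes were left out for this) and a narrower input range (interquartile range 0.58 on the log2 scale, against 1.19 to 1.26). Series 1 and series 2 were read on different scanners, and the 2 arrays of series 1 shared a slide, so differences are also given within each series. The deletion was not seen in the input. Over runs of 12 probes, about the length of fft3 (3611 bp), the lowest median input difference reached in both series was -0.28. The group is therefore called "labelled fft3Δ".

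Input alone split each end into an outer block and a flank. The block was taken as the unbroken run of probes from the tip with input above 1 on the log2 scale (array median 0) on all 4 arrays. It held 58 probes on the left, at 1 to 24601, and 20 on the right, at 2440501 to 2453701. In the left block the input averaged 4.22 and 4.27 in labelled fft3Δ, against 4.45 and 2.64 in wild type, which is 18.6 and 19.2 times the array median in labelled fft3Δ, and 21.9 and 6.24 times in wild type. The right block gave 4.09 and 4.25 in labelled fft3Δ, against 4.38 and 2.64 in wild type. Wild-type array 2 was the low array at both ends, and the other 3 lay close together. The position of the edge was set by wild-type array 2, since on the other 3 arrays the first probe outside was also above 1. On the left, the last inside probe, at 24601, read 2.22 and 2.22 in labelled fft3Δ, against 2.70 and 1.86 in wild type, and the next probe at 24901 read 1.55 and 1.34 against 1.58 and 0.46. On the right, the last inside probe at 2440501 read 4.88 and 4.31 in labelled fft3Δ, against 5.24 and 2.30 in wild type, and the first outside, at 2440201, read 1.92 and 1.85 against 2.38 and 0.53. The outermost probe of the left end read 4.38 and 4.62 in labelled fft3Δ, against 4.34 and 2.64 in wild type, and that of the right end 3.92 and 4.54 against 3.85 and 3.17. Probe brightness also depends on the probe's own sequence, so these signals are not copy numbers.

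**Figure D1:**
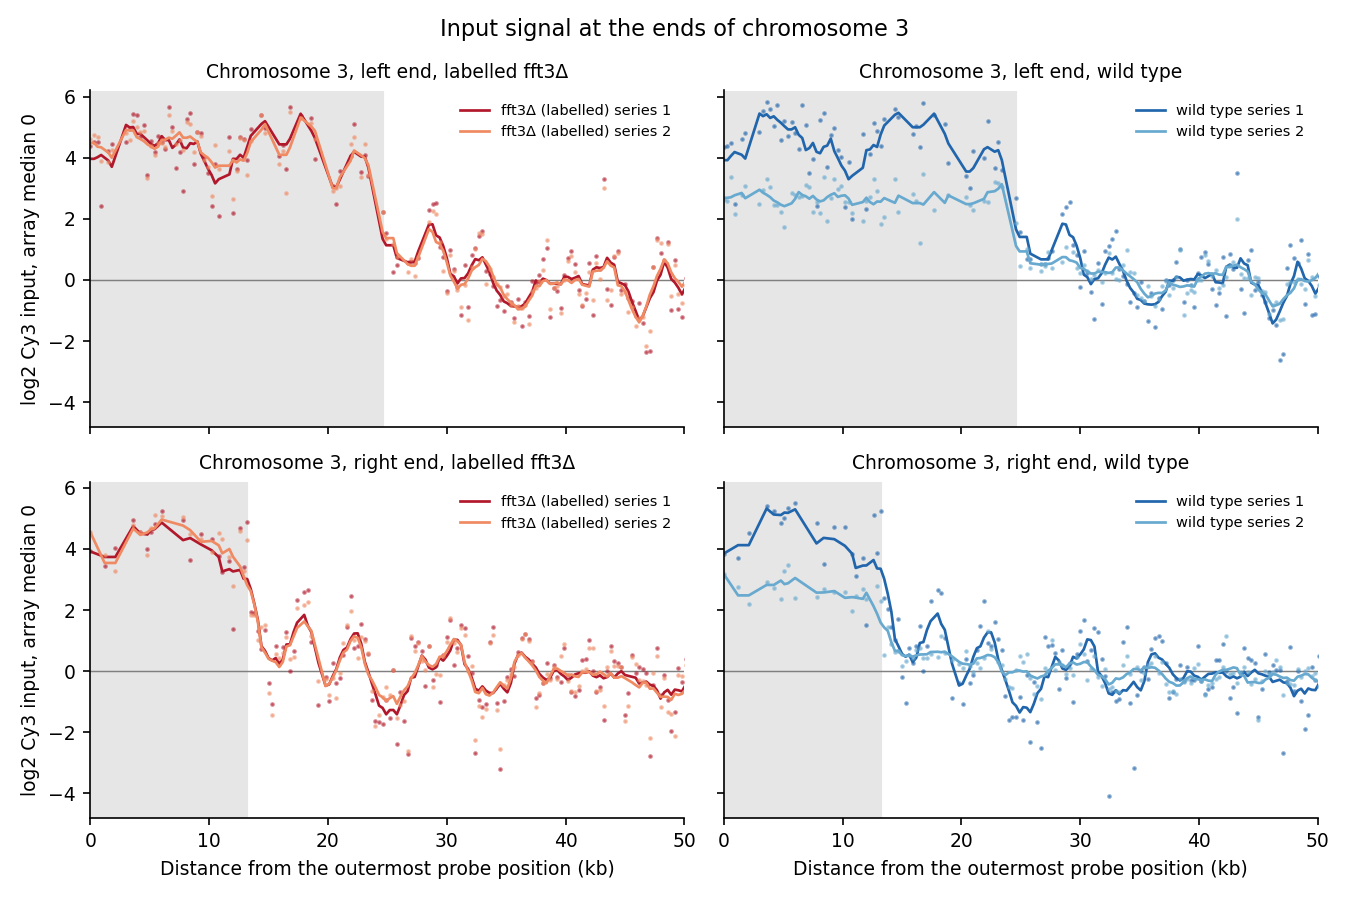
Cy3 input signal (log2, each array's median set to 0) against the distance in kb from the outermost probe position, for the left end (top) and right end (bottom), with labelled fft3Δ at left and wild type at right; points are probes, lines are means of probes within 1 kb, and grey marks the high-input block. The grey blocks are defined by input above 1 on all 4 arrays, and input declined past their inner edge. Wild-type series 2 had the lowest mean inside them, though not the lowest value at each probe.

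The brightest input probes of the left end were at 18601, 16801, 3601, 14401 and 6601, with mean input of 4.88 to 5.19, and those of the right end were at 2441101, 2448301, 2447701, 2450101 and 2448601, with 4.38 to 4.80. The first of each list was flagged on wild-type array 2, so its mean rests on 3 arrays. These probes were not alike in BrdU. The probe at 3601 had a log2 ratio of -0.22 and 0.025 in labelled fft3Δ, against -1.07 and -0.34 in wild type. By contrast the probe at 6601 had -2.16 and -1.68 in labelled fft3Δ, against -2.07 and -0.97 in wild type. All 78 block probes carried the letter f in their names, which the files do not define and which marked 2.82% of the array's probes. The near flank beside each block, described further on, was marked f throughout as well.

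The ratio of immunoprecipitate to input was low in the blocks and above the array median in the flanks. The log2 ratio (array median 0) of the left block averaged -1.37 and -1.19 in labelled fft3Δ, against -1.83 and -1.09 in wild type, and that of the right block -1.27 and -1.07 against -1.78 and -1.09. The left flank (246 probes) gave 0.45 and 0.36 in labelled fft3Δ, against 0.45 and 0.38 in wild type. The right flank (286 probes) gave 0.34 and 0.22 in labelled fft3Δ, against 0.30 and 0.26 in wild type. The mean of each block lay below that of its flank on all 4 arrays, while single probes of block and flank overlapped on each of them. The left block minus its flank was -1.82 and -1.55 in labelled fft3Δ, and -2.28 and -1.47 in wild type. The groups overlapped in all 4 of these regions. Without wild-type array 1 the difference between the groups was -0.19 in the left block and -0.078 in the right, and without wild-type array 2 it was 0.55 and 0.61, against 0.18 and 0.27 with all 4 arrays. The low ratio did not come with a low Cy5 signal, which in the left block was 2.94 and 3.15 above the array median on the log2 scale in labelled fft3Δ, and 2.71 and 1.57 in wild type. With an array, fewer labelled cells or repeat copies and less BrdU per copy cannot be told apart.

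**Figure D2:**
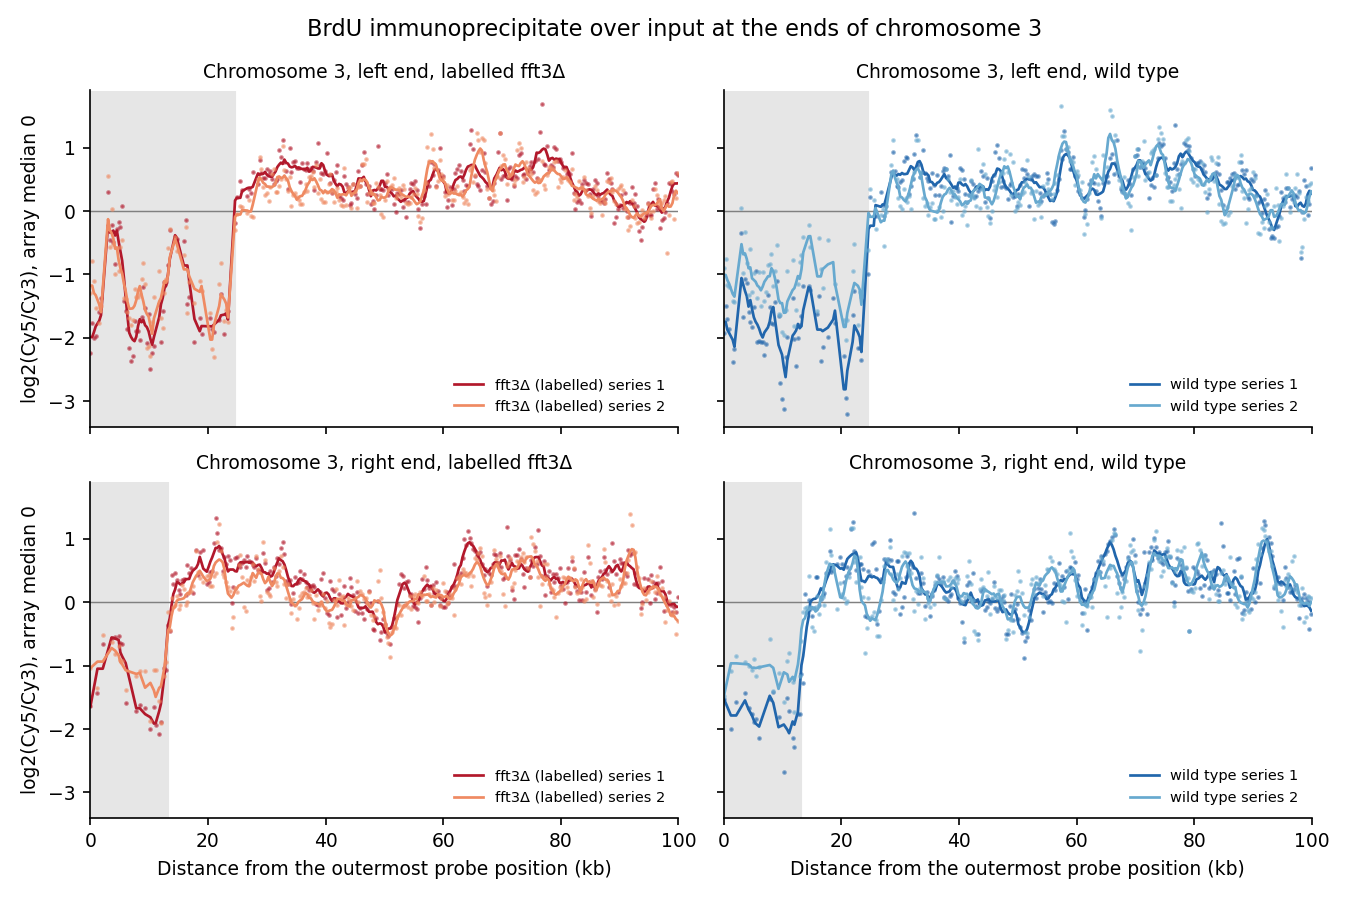
log2 ratio of Cy5 over Cy3 (each array's median set to 0) against the distance in kb from the outermost probe position, for the left end (top) and right end (bottom), with labelled fft3Δ at left and wild type at right; points are probes, lines are means of probes within 1 kb, and grey marks the high-input block. Flank lines lie mostly between 0 and 1, the block lies below 0 with 2 humps on the left and a single one on the right, and the humps are taller in labelled fft3Δ.

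Because the left end holds more block probes, the means over whole ends mixed opposite levels. The left end averaged 0.098 and 0.063 in labelled fft3Δ, against 0.015 and 0.10 in wild type. The group means were 0.080 ± 0.025 (labelled fft3Δ) and 0.059 ± 0.062 (wild type), each an SD over n = 2 arrays. Their difference of 0.021 changed sign between series 1 (0.083) and series 2 (-0.040) (exact permutation test, two-sided, p = 1.0). The right end averaged 0.23 and 0.13 in labelled fft3Δ, against 0.16 and 0.18 in wild type. Its difference was 0.014, with 0.071 in series 1 and -0.044 in series 2 (exact permutation test, p = 1.0). With 2 arrays against 2 this test cannot go below 0.33. The input over the left end was 0.84 and 0.85 in labelled fft3Δ, against 0.88 and 0.50 in wild type, and the Cy5 signal 1.04 and 0.99 against 0.98 and 0.61. Over the right end the input was 0.25 and 0.26 in labelled fft3Δ, against 0.26 and 0.11 in wild type.

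Set against the 7348 chromosome 3 probes between the ends, the left end differed by -0.20 and -0.24 in labelled fft3Δ, and by -0.29 and -0.27 in wild type (mean -0.25, lower on 4 of 4 arrays). The right end differed by -0.068 and -0.17 in labelled fft3Δ, and by -0.14 and -0.19 in wild type (mean -0.14, lower on 4 of 4 arrays). The left end was below the right end on 4 of 4 arrays (mean -0.11). Each of these 3 contrasts gave p = 0.13 in the exact sign-flip permutation test, two-sided, the smallest that 4 arrays allow. As means, their size depends on the blocks. Probes of high input were here all those above 1 on any array, at the ends or between them. Without them, the left end was above the chromosome between the ends by 0.10 and above the right end by 0.12. The right end then differed from the chromosome between the ends by -0.016. With only the blocks left out, these 3 values were 0.090, 0.13 and -0.040. As a median over all its probes, however, the right end still differed from the chromosome between the ends by -0.11. The left end differed from it by -0.035 as a median, and from the right end by 0.076. The Cy5 signal alone put the whole left end, block included, above the chromosome between the ends by 0.44. For the left flank that Cy5 difference was 0.044, positive on 3 of 4 arrays.

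BrdU signal at these flanks was opposite in level to that at the ends of chromosomes 1 and 2. Over the outer 100 kb with probes, the 4 ends of chromosomes 1 and 2 averaged -0.59 and -0.87 in labelled fft3Δ, against -0.92 and -1.35 in wild type. The whole left end of chromosome 3 lay above them by 0.69 and 0.93 in labelled fft3Δ, and by 0.93 and 1.45 in wild type, and the right end by 0.82 and 1.0 in labelled fft3Δ, and by 1.08 and 1.53 in wild type (exact sign-flip permutation test over 4 arrays, p = 0.13 for each end). Of the 15 bins of 10 kb without block probes, 13 had a ratio above 0 on all 4 arrays, over a range of -0.084 to 0.75. The ends of chromosomes 1 and 2 were binned from 0 to 100 kb with the 4 ends pooled. Of these 10 bins, 9 were below 0 on all 4 arrays, over a range of -1.91 to 0.010. The chromosome 3 bins are of single ends and start at 30 kb on the left and 20 kb on the right. The counts are therefore not a like comparison, as pooling can hide single ends with a bin above 0.

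That distance of chromosome 3 from the other ends had a lower mean in labelled fft3Δ. Between the groups, the chromosome 3 ends differed by 0.021 and 0.014, and the ends of chromosomes 1 and 2 by 0.41. The left end exceeded those ends by 0.81 ± 0.17 (labelled fft3Δ) and 1.19 ± 0.37 (wild type), each an SD over n = 2 arrays. This was a difference of -0.39, with -0.25 in series 1 and -0.52 in series 2 (exact permutation test, two-sided, p = 0.33, the smallest possible). For the right end the difference was -0.39, with -0.26 and -0.53 in series 1 and 2 (exact permutation p = 0.33). The Cy5 signal alone gave 0.017 for the left end and -0.087 for the right, while the input gave 0.40 and 0.31, most of it in series 2. The part of the input in this difference was not tested beyond these values.

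**Figure D3:**
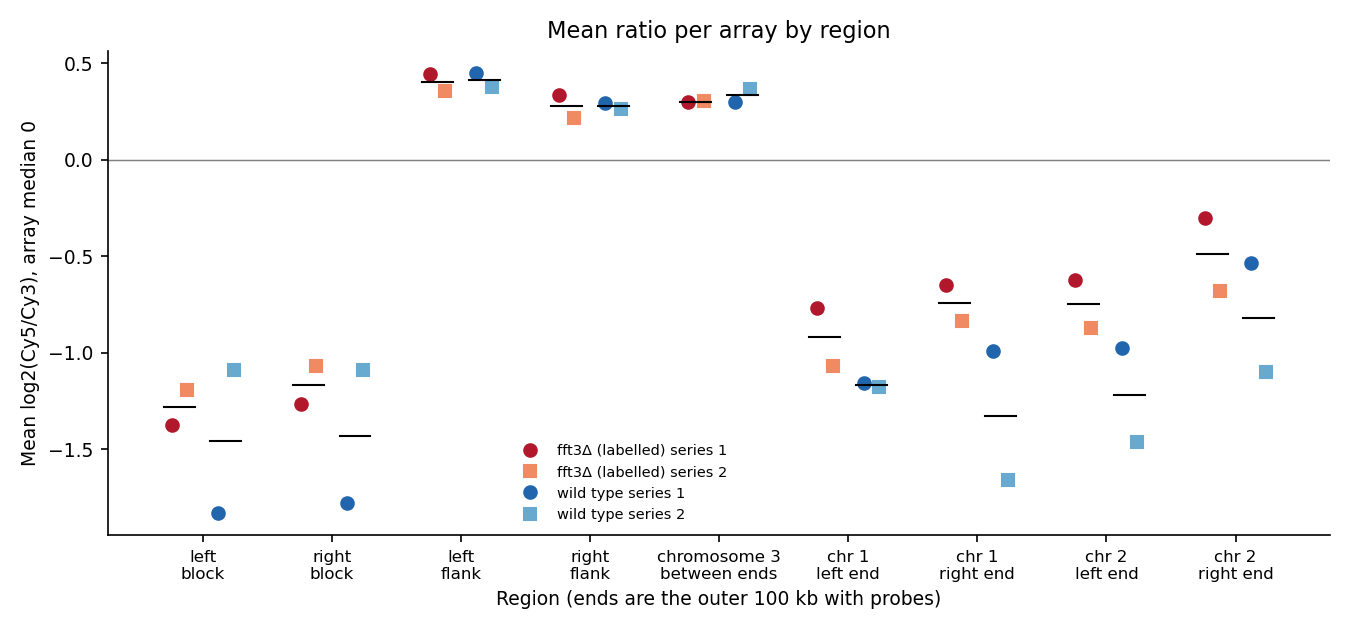
Mean log2 ratio of Cy5 over Cy3 (array median 0) by region, with a point for each array (circles series 1, squares series 2), black bars for the mean of 2 arrays, and labelled fft3Δ left of wild type. Both flanks of chromosome 3 and the chromosome between its ends lie above 0 on all 4 arrays, while the blocks and the ends of chromosomes 1 and 2 lie below 0.

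Within the blocks the signal followed the repeat unit. The ratio of left-block probes, averaged over the 4 arrays, correlated best with that of probes 10800 bp away, among shifts over 6 kb tried in steps of 300 bp (r = 0.92 over 19 probe pairs, which share arrays). On each of the 4 arrays the best shift was also 10800 bp, with r of 0.94 and 0.89 in labelled fft3Δ, and 0.91 and 0.70 in wild type. The input gave r of only 0.22 at that shift. The ends were also set against each other in inverted orientation. For left probes of the inner block and the flank beside it, paired with right probes, the ratio correlated best (r = 0.97 over 33 pairs) when the 2 positions of the design added up to 2464800, and the input reached 0.93 with a sum of 2464500. In the near flank alone, past the block, the mirror pairs (29 pairs at the first sum) had r of 0.64 and 0.73 in labelled fft3Δ, against 0.68 and 0.72 in wild type. The pairs of the first comparison span the step from block to flank, which by itself gives a high r, so they do not show that the pattern within the block is mirrored. As the reference sequence of the ends is shared over this stretch, they are not treated as independent of each other.

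The 78 block probes were folded on the 10870 bp unit in 10 bins of 1087 bp. The right block was turned round at the sum of 2464800, itself picked by the correlation of the ratio. The 3 highest bins adjoined each other, from 2174 to 5435 bp of the fold. They held 23 probes, at 3001 to 5401 and 13201 to 16201 on the left and at 2448601 to 2451601 on the right, with 24601, 2440501 and 2440801 from a further copy. In the reference the spacer between the 18S and 28S genes of neighbouring units runs from 1391 to 6056 and from 12261 to 16926, in that assembly's own positions. The array positions were not converted, so the probes are not assigned to the spacer. The choice of these bins used the mean ratio of the 4 arrays, so their height against the rest is a description. The bin from 4348 to 5435 bp had -0.33 and -0.66 in labelled fft3Δ, against -1.59 and -0.98 in wild type. In wild type the bin from 7609 to 8696 bp, which was not chosen, was as high (-1.60 and -0.97). The place of the former among the 3 thus rested on labelled fft3Δ, so the choice in part sets the difference between the groups.

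This higher part of the unit, chosen in part through the labelled fft3Δ values, was where the groups stood furthest apart. Its 23 probes had a mean log2 ratio of -0.41 and -0.52 in labelled fft3Δ, against -1.40 and -0.79 in wild type. Both labelled fft3Δ arrays lay above both wild-type arrays, by 0.99 within series 1 and 0.27 within series 2. The other 55 block probes had -1.74 and -1.43 in labelled fft3Δ, against -1.99 and -1.21 in wild type, with the groups overlapping and the sign of the difference changing between series 1 (0.25) and series 2 (-0.22). The higher part exceeded the rest by 1.32 and 0.91 in labelled fft3Δ, and by 0.59 and 0.43 in wild type, a difference of 0.61 between the groups (0.74 in series 1, 0.48 in series 2). This difference was 0.63 in the left block and 0.54 in the right block. The right block was aligned to the left by these same ratios and shares its reference sequence, so it is no separate observation. Leaving out each array in turn, the difference over both blocks was 0.41 to 0.81, with the lowest value without labelled fft3Δ array 1.

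By probe, 19 of the 22 measured on both wild-type arrays were higher in labelled fft3Δ in both series and 0 were lower in both, against 24.9% of all probes higher and 31.9% lower in both. The block probes lie in copies of the same repeat unit, so they are not separate observations and the shares are given for scale only. Among the other block probes 7 of 53 were higher and 21 lower in both series. Neither channel alone gave the whole of this. The Cy5 signal of the higher part exceeded the rest by 1.70 and 0.93 in labelled fft3Δ, and by 1.35 and 0.29 in wild type, a difference of 0.50 with overlapping groups. The input of the higher part exceeded the rest by 0.38 and 0.019 in labelled fft3Δ, and by 0.76 and -0.14 in wild type, a difference of -0.11 that was -0.38 in series 1 and 0.16 in series 2. As the bins were picked after their values were seen, no test is given, and the count of 19 of 22 is in part set by that choice. For the Cy5 signal this difference was 0.35 in series 1 and 0.65 in series 2. The part of the input in this contrast, including the narrower input range of wild-type array 2, was not tested.

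**Figure D4:**
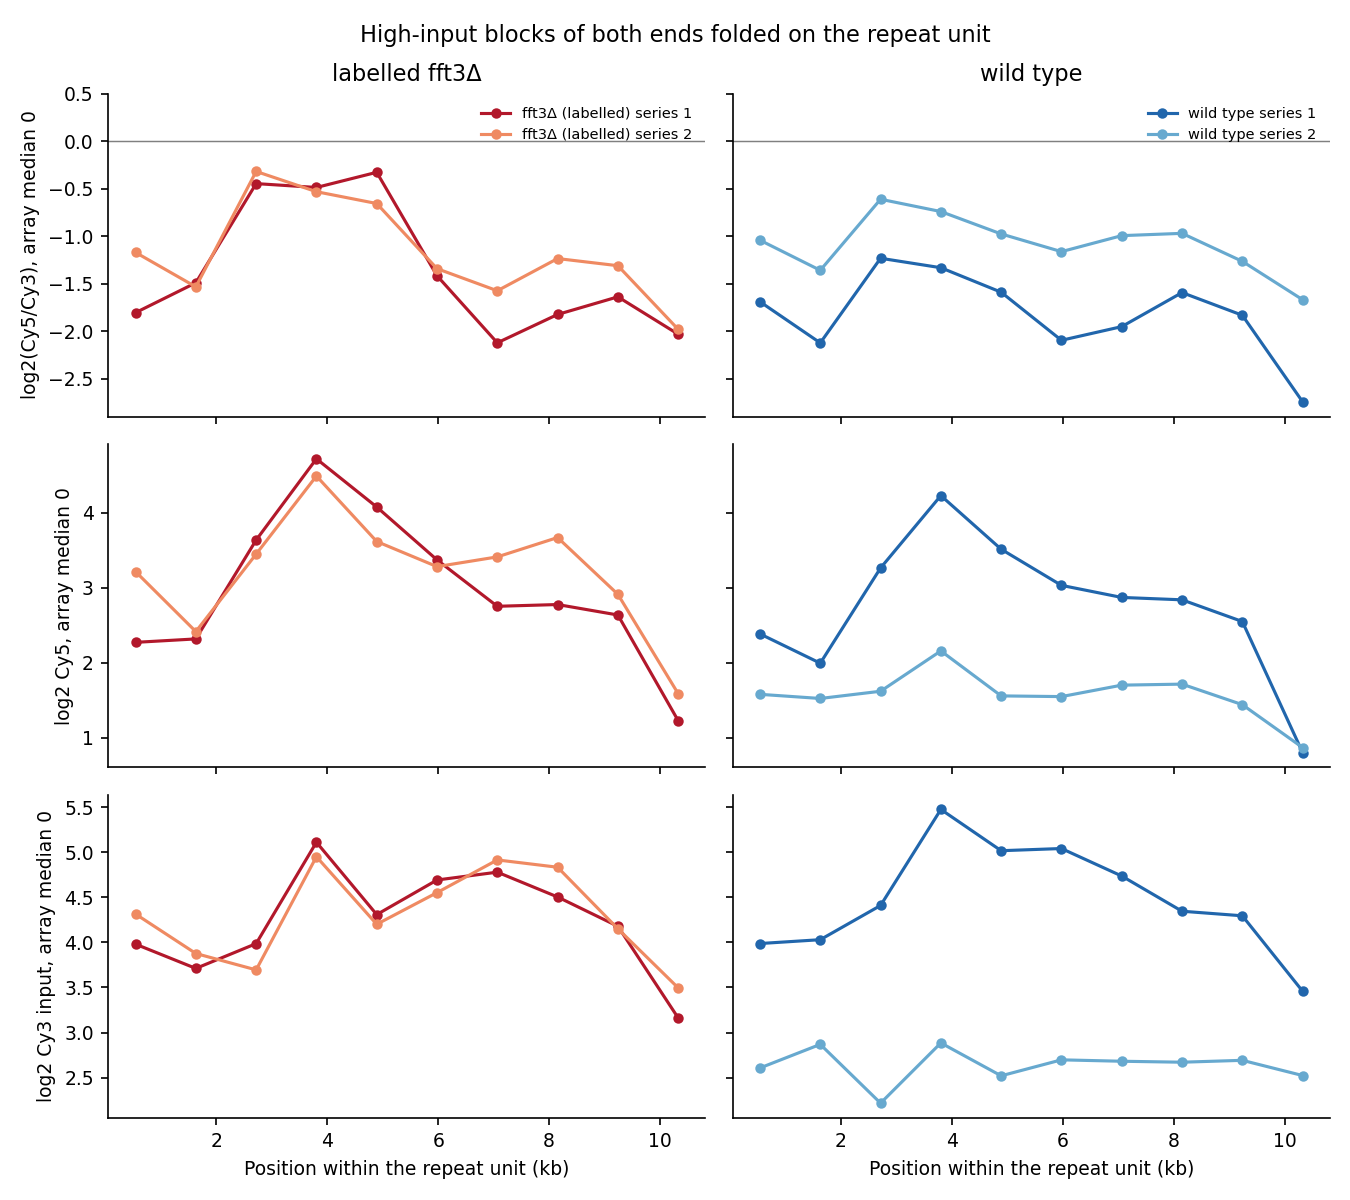
Block probes of both ends folded on the repeat unit, in 10 bins, with the position within the unit in kb on the horizontal axis and the mean of each array for the log2 ratio (top), log2 Cy5 (middle) and log2 Cy3 input (bottom), array medians at 0; labelled fft3Δ at left, wild type at right. The ratio peaks between 2174 and 5435 bp on all 4 arrays, and stands out more from the rest of the unit in labelled fft3Δ, while the input of wild-type series 2 is nearly flat.

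In the fit across all windows of 2 kb with limma, none of the ends' 96 windows passed an adjusted p of 0.05, as was the case for 0% of the array's 6277 windows. At an unadjusted p under 0.05 there were 6 of 96, 3 on each end (6.25%), against 4.13% of all windows. The count moved when some arrays were left out, and so did that over all windows. With the series as a replicate block the count at the ends was 11 of 96 (11.458%), against 11.407% of all windows. In the fit as reported, the 3 on the left were windows of the block, at 4001 to 6000, 2001 to 4000 and 14001 to 16000. All overlapped the higher part of the repeat unit. The window at 4001 to 6000 had -0.48 and -0.82 in labelled fft3Δ, against -1.61 and -1.11 in wild type, a difference of 0.71 ± 0.20 (SE; adjusted p = 0.895, limma). The windows at 2001 to 4000 and 14001 to 16000 differed by 0.62 ± 0.19 and 0.56 ± 0.19. On the right, the window at 2448001 to 2450000, again in the block, had -0.59 and -0.84 in labelled fft3Δ, against -1.79 and -1.04 in wild type, a difference of 0.70 ± 0.24 (adjusted p = 0.895, limma). These 4 windows were high in labelled fft3Δ in both series and overlap the same part of the folded repeat unit, so they are not counted as 4 separate observations.

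The flank windows with the largest moderated t, none past the adjusted threshold, had smaller differences. On the right, 2382001 to 2384000 had 0.59 and 0.38 in labelled fft3Δ, against 0.25 and -0.028 in wild type, a difference of 0.37 ± 0.15, and 2364001 to 2366000 differed by 0.30 ± 0.16. The largest negative t was at 2394001 to 2396000, with 0.12 and 0.074 in labelled fft3Δ, against 0.43 and 0.45 in wild type, a difference of -0.34 ± 0.13. Those at 2360001 to 2362000 and 2372001 to 2374000 differed by -0.31 ± 0.15 and -0.21 ± 0.14. On the left the largest negative t belonged to 86001 to 88000, with 0.27 and 0.19 in labelled fft3Δ, against 0.52 and 0.52 in wild type, a difference of -0.29 ± 0.13. The windows at 56001 to 58000 and 82001 to 84000 differed by -0.31 ± 0.17 and -0.24 ± 0.13. Groups did not overlap in 19 of 49 left windows and 14 of 47 right windows, against 34.5% of all windows.

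Distance profiles in 10 kb bins showed where the ends changed level. In the outermost 10 kb of the left end the ratio was -1.35 and -1.14 in labelled fft3Δ, against -1.74 and -1.06 in wild type, and from 10 to 20 kb it was -1.33 and -1.14 against -1.84 and -1.01. From 20 to 30 kb, where block and flank meet, it was -0.40 and -0.51 in labelled fft3Δ, against -0.74 and -0.49 in wild type. From 30 to 40 kb it was 0.67 and 0.38 in labelled fft3Δ, against 0.54 and 0.26 in wild type. The following bins stayed above 0 on all arrays. They were highest from 70 to 80 kb, with 0.73 and 0.605 in labelled fft3Δ, against 0.75 and 0.71 in wild type, and lowest from 90 to 100 kb, with 0.10 and 0.068 in labelled fft3Δ, against 0.10 and 0.076 in wild type. Groups did not overlap from 50 to 60 kb (0.33 and 0.39 in labelled fft3Δ, against 0.49 and 0.49 in wild type) or from 80 to 90 kb (0.34 and 0.32 against 0.51 and 0.36).

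The right end went through its change of level nearer to the tip, as its block is shorter. Its outermost 10 kb had -1.11 and -0.97 in labelled fft3Δ, against -1.72 and -1.05 in wild type. From 10 to 20 kb the ratio was -0.18 and -0.25 in labelled fft3Δ, against -0.45 and -0.22 in wild type, and from 20 to 30 kb it was 0.63 and 0.38 against 0.51 and 0.19. A low stretch followed that the left end did not have at that distance. From 40 to 50 kb the ratio was -0.063 and 0.0021 in labelled fft3Δ, against -0.042 and 0.0027 in wild type, and from 50 to 60 kb 0.042 and -0.084 against 0.079 and 0.29, without overlap of the groups. Further in, the ratio was 0.55 and 0.38 in labelled fft3Δ, against 0.499 and 0.33 in wild type, from 60 to 70 kb, and 0.27 and 0.23 against 0.33 and 0.36, again without overlap, from 90 to 100 kb. The remaining bins, from 30 to 40, 70 to 80 and 80 to 90 kb, lay between 0.13 and 0.54. Over both ends, 4 of 20 bins did not overlap, against 28.8% of all 10 kb bins of the chromosomes. The difference had the same sign in both series in 5 of 10 left bins (1 higher, 4 lower) and 7 of 10 right bins (4 higher, 3 lower), against 27.2% of all bins higher and 32.6% lower in both series.

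**Figure D5:**
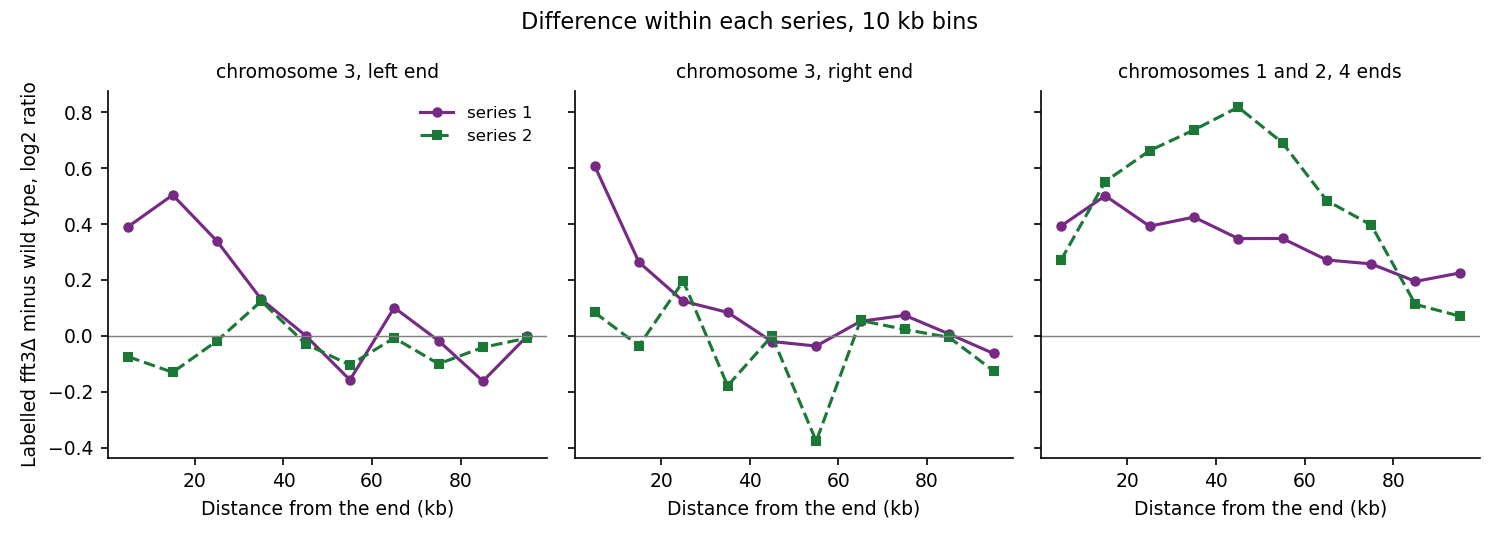
Labelled fft3Δ minus wild type in the mean log2 ratio of 10 kb bins, within series 1 (circles, solid) and series 2 (squares, dashed), against the distance from the end in kb, for the left and right end of chromosome 3 and for the 4 ends of chromosomes 1 and 2 together. On chromosome 3 the sign and size of the difference vary between bins and between series, with the widest gap between the series from 10 to 20 kb on the left, while on chromosomes 1 and 2 both series lie above 0 in all 10 bins.

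Beside the block, the stretch marked f was examined apart from the rest. This near flank had 32 probes on the left (24901 to 35701) and 36 on the right (2428801 to 2440201). On the left its ratio was 0.59 and 0.33 in labelled fft3Δ, against 0.497 and 0.26 in wild type, and on the right 0.51 and 0.25 against 0.33 and 0.17. Labelled fft3Δ was higher within both series at both ends, by 0.091 and 0.062 on the left and 0.18 and 0.080 on the right. The groups overlapped, however, with series 1 above series 2 in each. The near flanks share their reference sequence, so the 2 ends are not separate observations. For scale, 27.2% of all 10 kb bins were higher in both series. The far flank differed less between series 1 and series 2. Its 214 left probes had 0.42 and 0.36 in labelled fft3Δ, against 0.44 and 0.395 in wild type, and its 250 right probes 0.31 and 0.21 against 0.29 and 0.28. The left flank exceeded the right flank on all 4 arrays, by 0.11 and 0.14 in labelled fft3Δ and by 0.16 and 0.12 in wild type.

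Local maxima of BrdU signal were sought on the mean of the 4 arrays. A maximum was the highest point within 5 kb on each side, more than 1 background SD above the median (0.74). There were 8 in the ends, 4 on each, or 4.0 per 100 kb, against 101 between the ends, or 4.48 per 100 kb. Their smoothed height was 0.81 to 1.03, and 44 of those between the ends were taller, up to 2.07. The outer 100 kb of chromosomes 1 and 2 together held 1. No maximum fell within a block, where the highest ratio of a probe on any array was 0.55. The 4.0 per 100 kb counts the blocks, so the density of the flanks alone is higher.

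On the left the maxima were at 32701, 57601, 66001 and 78901, and on the right at 2431801, 2387401, 2378401 and 2361901, in order from the tip. The positions 32701 and 2431801 both lie in the near flank, whose reference sequence is shared between the ends, so they are not counted as separate sites. Within 1 kb of 32701 the ratio was 0.74 and 0.53 in labelled fft3Δ, against 0.69 and 0.65 in wild type, and at 2431801 it was 0.89 and 0.67 against 0.76 and 0.62. At 57601 it was 0.47 and 0.78 in labelled fft3Δ, against 0.83 and 1.06 in wild type, without overlap and lower in labelled fft3Δ within both series (by 0.36 and 0.29). The input there was 0.98 and 0.77 in labelled fft3Δ, against 0.82 and -0.011 in wild type, and the Cy5 signal 1.55 and 1.62 against 1.74 and 1.07. At 78901 the ratio was 0.81 and 0.64 in labelled fft3Δ, against 0.92 and 0.82 in wild type, and at 2361901 it was 0.57 and 0.80 against 0.82 and 0.97, also without overlap. The maximum at 66001 had 0.61 and 0.94 in labelled fft3Δ, against 0.75 and 1.12 in wild type, and that at 2387401 had 0.67 and 0.57 against 0.83 and 0.57. The groups were closest at 2378401, with 0.68 and 0.68 in labelled fft3Δ, against 0.69 and 0.61 in wild type. The 3 maxima of 8 without overlap compare with 34.5% of all 2 kb windows.

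The lowest windows of both ends lay in the blocks. On the left they were at 20001 to 22000, 10001 to 12000 and 6001 to 8000. The lowest, 20001 to 22000, had -1.79 and -1.81 in labelled fft3Δ, against -2.52 and -1.61 in wild type. On the right they were at 2442001 to 2444000, 2444001 to 2446000 and 2440001 to 2442000, the first with -1.91 and -1.39 in labelled fft3Δ, against -2.01 and -1.14 in wild type. In the flanks 36 of 37 left windows and 39 of 43 right windows had a mean ratio above 0. The lowest flank window was at 2402001 to 2404000 on the right, with -0.42 and -0.49 in labelled fft3Δ, against -0.46 and -0.0014 in wild type, and the lowest on the left was at 92001 to 94000, with a mean of -0.060.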

How the data were processed

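The series holds 4 two-colour Agilent arrays of 60-base probes. Per the labels' protocols, DNA was sonicated, BrdU-containing fragments were immunoprecipitated, and both fractions were amplified by random-primed PCR before labelling; per the submitters' processing notes Agilent Feature Extraction was used, version 12.0 on 3 arrays and 11.5 on wild-type array 2 per the file headers. Per the file headers the deposited intensity values are background-subtracted, dye-normalized signals beside median and background intensity values, with a log10 ratio that was not used. The deposited series matrix gives a linear ratio, an alternative here. The deposited flag columns (unit other) mark non-uniform, saturated and above-background spots; non-uniform spots were left out. The genome build is not given in the sources used here.

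From these, log2 of processed Cy5 over processed Cy3 was shifted to a median of 0 per array; loess was an alternative. limma 3.58.1 (R 4.3.3, lmFit, eBayes, two-sided, Benjamini-Hochberg) was fitted to all windows of 2 kb with at least 3 probes, with genotype as the only term. The code was also run on simulated data with planted differences. That noise was independent and of equal spread, unlike these arrays, so the run checks the code only. Values per array were compared with exact permutation tests. Reference stretches were aligned with blastn 2.17.0. The members, lists and thresholds were chosen with earlier results of these data known; blocks, flanks and the repeat fold were defined after seeing the data. By rule the text names all 10 kb bins and local maxima, the 3 windows of each end with the largest positive and negative t, the 3 lowest windows, the 5 brightest input probes and the outermost probe. Positions follow the array design and are 1-based. The number of arrays limits the precision. No dye swap was made, so dye bias does not cancel. Across the 6277 windows, the deviations of same-numbered arrays from their group means had a correlation of 0.34, and 0.497 across the 96 windows of the ends. With 2 arrays a group, the deviations of array 2 mirror those of array 1, so the 2 pairs are not separate comparisons. No label says that the series is a batch.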

Additional observations from a re-analysis of the deposited data

How the results depend on the processing

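All values are log2 differences. Probes of high input are here those with input above 1 on any array. The whole-end differences between labelled fft3Δ and wild type, 0.021 left and 0.014 right, had no stable sign. For the left and right end they were -0.0016 and -0.032 with normexp background correction, -0.10 and -0.11 with centring on the mode, 0.22 and 0.11 for Cy5 alone, -0.0042 and -0.012 without the outermost 20 kb, -0.017 and -0.0045 without probes whose names carry a suffix, and -0.024 and -0.016 without those marked f or m. Leaving out 1 array gave -0.022 to 0.065 left and -0.035 to 0.063 right. The flank differences were -0.085 (left, normexp), 0.024 and 0.012 with loess, -0.14 and -0.13 on the mode, 0.051 and 0.050 for Cy5, and 0.0060 and 0.018 without probes of high input, with -0.056 to 0.031 and -0.062 to 0.056 leaving out 1 array. The block differences were 0.91 and 0.96 for Cy5 and ranged from -0.19 to 0.55 and -0.078 to 0.61 leaving out 1 array. The left end minus the chromosome between the ends was -0.33 with normexp, -0.39 with loess, 0.44 for Cy5, 0.10 without probes of high input, 0.018 without the outermost 20 kb, 0.11 without suffixed probes, 0.11 without those marked f or m, and -0.035 as a median. For the right end it was -0.0017 for Cy5, -0.016 without probes of high input, -0.035 without the outermost 20 kb and -0.024 without suffixed probes. It was -0.030 without those marked f or m, and stayed at -0.11 as a median. Left minus right was -0.24 with loess, 0.44 for Cy5, 0.12 without probes of high input, 0.053 without the outermost 20 kb, 0.13 without suffixed probes, 0.14 without those marked f or m, and 0.076 as a median. Against the ends of chromosomes 1 and 2, the left end stood at 0.62 with loess and 1.77 for Cy5, and with normexp the flanks stood at 1.69 and 1.51. The causes were not tested. The repeat contrast difference of 0.61 stayed between 0.41 and 0.81 under its 13 alternatives, which all kept the same chosen bins.

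With the series as a replicate block the differences between group means were unchanged (0.021 and 0.014 for the ends). No end window was called under the 18 alternatives of the window fit. Over all windows, limma called 33 with the replicate block and 63 without wild-type array 1, against 0 in the fit as reported. The 8 maxima became 0 at a threshold of 2 SD, 12 at 0.5 SD and 11 with a separation of 2.5 kb. Block values have no counterpart without probes of high input or with a suffix, which leave no block probes. The flank, block and repeat results and the setting on marked probes were added after seeing the data. Precision is limited by having 2 arrays a group. Leaving out some arrays also moved the number of windows at an unadjusted p under 0.05, both at the ends and over all windows.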

Other observations

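Probes with input above 2 on the log2 scale on all 4 arrays differed by where they lay, in input and in ratio. Input averaged 4.27 and 4.32 in labelled fft3Δ, against 4.51 and 2.74 in wild type, at the ends of chromosome 3. Elsewhere on the chromosomes it was 3.05 and 2.85 against 3.13 and 2.22. On the mitochondrial contig it was 4.89 and 4.35 against 5.16 and 2.36, and on the contigs named pNSU 3.86 and 3.91 against 4.34 and 2.61. The part of the input in the ratios was not tested. In ratio, the 70 at the ends of chromosome 3 averaged -1.33 and -1.15 in labelled fft3Δ, against -1.80 and -1.11 in wild type. The 96 elsewhere on the chromosomes averaged 0.31 and 0.30 in labelled fft3Δ, against 0.13 and -0.24 in wild type, without overlap. The 34 of the mitochondrial contig averaged -0.24 and 0.35 in labelled fft3Δ, against -0.79 and 0.72 in wild type. The 69 of the contigs named pNSU averaged -2.21 and -2.35 in labelled fft3Δ, against -3.04 and -1.19 in wild type, lower than the chromosome 3 ends on all 4 arrays.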
